A study of Rattus norvegicus with 6 samples.

Results

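The genes described here are 9 components and regulators of the complement system, C1s, C1r, C3, C4a, Cfb, Serping1, Cd55, Cd59 and Clu. They were taken by symbol from a table of 30560 gene rows, and each symbol had 1 row. The cells were mesenchymal stem cells of the rat, labelled WT, a stromal population able to form bone, fat and cartilage. All cells were first kept in 200 nM doxorubicin, a DNA-damaging anthracycline, for 24 hours to induce senescence, and then in fresh medium for 6 days. During those days the SMNV group received 100 µg/ml of a preparation named SMNV in the labels, which do not expand the name, and the Dox group received vehicle (3 poly(A) RNA-seq libraries each). Libraries from cells without doxorubicin were not analysed here, so each comparison sets doxorubicin-treated cells with the preparation against doxorubicin-treated cells without it. The labels do not say whether the libraries of a group came from separate cultures or animals, so p-values measure the spread between these libraries, which may be technical.

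Complement is a cascade of plasma proteins that tags targets and can pierce their membranes. In the classical pathway C1q recruits the serine proteases C1r and C1s, and C1s cleaves C4 and C2. In the lectin pathway collectins and mannose-binding lectin recruit the related MASP proteases. Both routes, and the alternative pathway driven by factor B, factor D and properdin, converge on C3. Cells hold the cascade in check with soluble inhibitors such as C1 inhibitor and clusterin, and with the membrane proteins CD55 and CD59. Most plasma complement is made by the liver, but fibroblasts and other stromal cells also transcribe several components.

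Of the 9 genes, 7 passed the filter on low counts and were tested. With SMNV, C1r, Cfb and Clu rose and C1s fell, each by less than 2-fold. The identity of the Cfb row is uncertain, as described below. C4a, Cd55 and Cd59 did not pass, Serping1 stood at 1 to 8 counts a library, and C3 had no count in any library. Of the tested members 57.1% were called (4 of 7), while 60.4% of all 12614 tested genes were called by the same edgeR test (30.5% higher and 29.9% lower), so the share of complement genes called was close to that of the whole table. The median log2 fold change of the 7 was 0.27, against -0.01 over all tested genes. In CPM (counts scaled to the library total with TMM factors) the groups did not overlap for 6 of the 7, and for 66.9% of all tested genes. Since RNA came from whole cultures, fewer cells of a type and less RNA per cell cannot be told apart.

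The libraries held 18640909 to 21506967 estimated counts. The share of counts in the 10 leading genes was 17.8% to 19.4% in SMNV libraries and 14.4% to 15.2% in Dox libraries. All 11 listed mesenchymal stromal markers passed the filter: 5 were higher in SMNV, 3 were lower and 3 did not pass (edgeR). The share called was 72.7%, against 60.4% of all tested genes (30.5% higher and 29.9% lower). Their summed level was 74000 to 87700 CPM by total count in SMNV and 42600 to 49600 in Dox. Most of this sum, and of its difference, came from Col1a1 and Col1a2. By total count Col1a1 had 35106 to 43665 CPM in SMNV and 17753 to 21865 in Dox. On the same scale Col1a2 had 29283 to 34760 CPM in SMNV and 15196 to 18178 in Dox. Col1a1 (log2 fold change 1.08), Col1a2 (1.02) and Vim (0.74) were among those higher, while Cd44 (-1.08), Itgb1 (-0.64) and Pdgfra (-0.40) were lower. Thy1 did not pass, at 812 CPM in SMNV and 824 CPM in Dox, and Nt5e was at no more than 2.34 CPM in any library. The part of these marker differences in the complement values was not tested. Of 10 myeloid markers, Ptprc, Aif1, Itgam, Tyrobp and Cd163 had no count in any library, and the summed level of the list was 8.92 to 9.35 CPM of the unscaled total in SMNV and 8.86 to 11.7 in Dox. Among the 3 tested myeloid markers, Csf1r was lower in SMNV (log2 fold change -0.91) and Cd14 and Fcer1g did not pass. Of 7 hepatocyte markers with a row, 5 had no count, and the summed level of that list was 2.25 to 2.42 CPM by total count in SMNV and 2.37 to 2.59 in Dox. Of 6 endothelial markers, Cdh5, Kdr and Emcn had no count. Tek, with 21 to 45 counts in SMNV and 25 to 50 in Dox, was tested and did not pass, and Vwf had at most 15 counts. The endothelial list summed to 1.27 to 2.33 CPM by total count in SMNV and 1.45 to 3.04 in Dox.

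**Figure D1:**
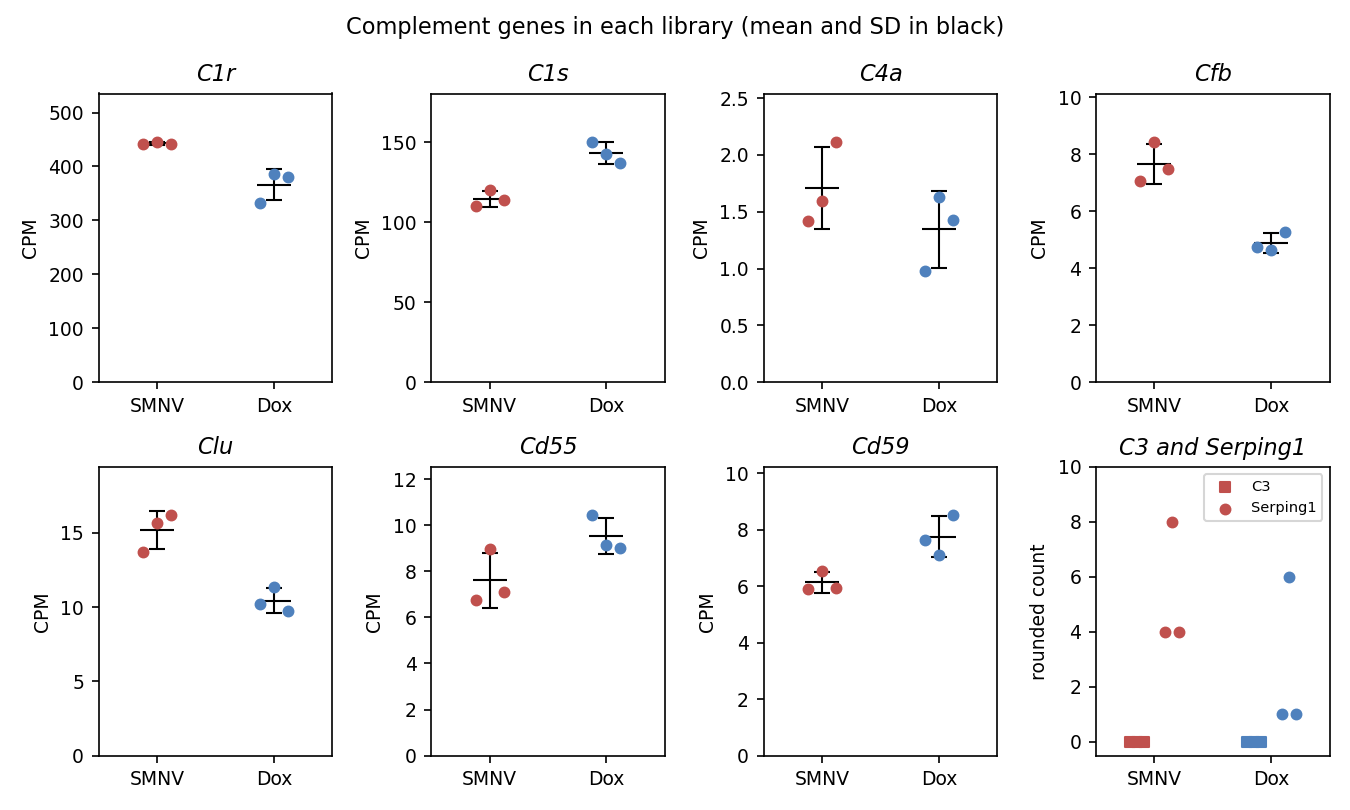
Level of each complement gene in each library: CPM for the 7 tested genes and rounded counts for C3 and Serping1 (last panel), with SMNV libraries in red and Dox libraries in blue, and the mean and SD (n = 3) in black. C1r, Cfb and Clu sit higher in all 3 SMNV libraries, C1s sits lower, the groups of C4a overlap, and C3 is at 0 throughout.

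The genes differed in level far more than the groups differed from each other. On the TPM scale of the authors' table, which corrects for transcript length, C1r had 296 ± 8.21 TPM in SMNV and 266 ± 21.2 in Dox (SD, n = 3), and C1s had 81.6 ± 1.12 TPM in SMNV and 113 ± 6.08 TPM in Dox. Clu followed in SMNV at 16.6 ± 1.02 TPM, with 12.3 ± 1.01 TPM in Dox, and Cd59 had 13.5 ± 2.31 TPM in SMNV and 21.2 ± 2.36 TPM in Dox. Next came Cfb, at 5.66 ± 0.507 TPM in SMNV and 4.50 ± 0.314 in Dox, and Cd55, at 4.57 ± 0.679 TPM in SMNV and 6.19 ± 0.353 in Dox. C4a averaged 0.550 ± 0.104 TPM in SMNV and 0.470 ± 0.118 in Dox. On this scale neighbours in the order changed places between the groups in both cases where they were close. Clu stood above Cd59 in all 3 SMNV libraries (lowest Clu 15.5 TPM, highest Cd59 15.3 TPM) and below it in all 3 Dox libraries (highest Clu 13.4 TPM, lowest Cd59 18.6 TPM). Cfb stood above Cd55 in all 3 SMNV libraries (lowest Cfb 5.18 TPM, highest Cd55 5.03 TPM) and below it in all 3 Dox libraries (highest Cfb 4.86 TPM, lowest Cd55 5.92 TPM). Both pairs were picked after their values were seen, and the margins in SMNV were small. The changes of place did not hold in CPM. There Clu stood above Cd59 in every library (lowest Clu 9.71 CPM, highest Cd59 8.53 CPM). Cfb lay below Cd55 in SMNV 2 (8.44 and 8.95 CPM). The TPM values of Cd59, Cfb and Cd55 also depend on the transcript lengths used, which varied between libraries and are given below. C4a and Serping1 overlapped in Dox, where C4a ranged from 0.34 to 0.57 TPM and Serping1 from 0.06 to 0.46 TPM.

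The proteases of the C1 complex moved in opposite directions. C1r, which activates itself and then cleaves C1s, had 440.9, 446 and 442 CPM in SMNV and 333, 387 and 379.8 CPM in Dox. All SMNV libraries lay above all Dox libraries and were close together, while Dox 1 was the lowest. The rise of C1r was 1.21-fold, or 0.27 ± 0.07 as a log2 fold change (SE; edgeR, adjusted p = 0.00245). C1s, which cleaves C4 and C2, had 109.9, 119.9 and 114 CPM in SMNV and 150.5, 143 and 137 CPM in Dox. All SMNV libraries lay below all Dox libraries. C1s fell by 0.32 on the log2 scale (SE 0.06, adjusted p = 5.05e-04, edgeR). With limma on log2(TPM + 1) of the authors' table, by which 61.3% of all tested genes and 4 of the 7 complement genes were called, C1s was lower by more (log2 difference -0.47, adjusted p = 2.05e-04) and C1r did not pass (0.16, adjusted p = 0.0747). On that scale the median of all tested genes stood at -0.10, and relative to it C1r was at 0.26 and C1s at -0.37.

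The ratio of C1r to C1s within a library does not depend on library scaling. In TPM it was 3.75, 3.53 and 3.61 in SMNV and 2.02, 2.48 and 2.56 in Dox, a mean of 3.63 ± 0.109 in SMNV and 2.35 ± 0.292 in Dox (SD, n = 3, two-sided exact permutation p = 0.1, the smallest that 3 against 3 libraries allow). The groups did not overlap. On counts the ratio was 3.87 ± 0.145 in SMNV and 2.57 ± 0.306 in Dox (SD, n = 3). The ratio of C1r to C1s was chosen after the values were seen. C1r and C1s lie next to each other on chromosome 4 with no protein-coding gene between them in the RefSeq annotation of GRCr8, and C1rl, a C1r-like protease gene, is the neighbour on the other side of C1r. C1rl had 5.82, 7.03 and 5.90 CPM in SMNV and 6.58, 7.89 and 7.98 CPM in Dox, with overlapping groups (log2 fold change -0.26 ± 0.15, adjusted p = 0.149, edgeR), though it passed on log2(TPM + 1) at -0.32 (adjusted p = 0.0349, limma). The genes of C1q, the recognition subunit that carries these proteases, were at or near 0: C1qb and C1qc had no count and C1qa had 1 count in 1 Dox library.

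**Figure D2:**
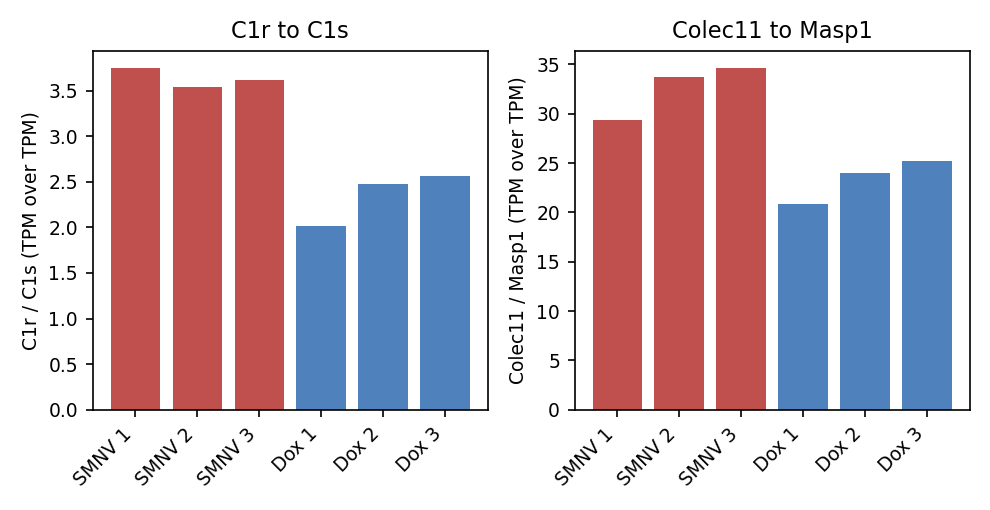
Ratio of C1r to C1s (left) and of Colec11 to Masp1 (right) in each library, TPM over TPM, with SMNV libraries in red and Dox libraries in blue. C1r stands at 3.53 to 3.75 times C1s in SMNV and 2.02 to 2.56 times in Dox, and Colec11 at 29.4 to 34.7 times Masp1 in SMNV and 20.9 to 25.3 times in Dox.

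Promoters of 4 of the 9 genes (C1r, C3, C4a and Cd55) were in the RefSeq promoter set of GRCr8, which gives 250 bases before to 50 after each gene's start. Those of C1r, the most abundant of the 9, of C3, which had no count, and of Cd55, a membrane regulator, are shown so that these can be set side by side, 5′ to 3′ on the gene's strand. C1r is at chr4:159098763-159099062, plus strand. C3 is at chr9:2201290-2201589, minus strand. Cd55 is at chr13:44438052-44438351, minus strand. Capitals mark matches, on either strand, to letters that resemble binding motifs of factors known to act on acute-phase genes.
C1r: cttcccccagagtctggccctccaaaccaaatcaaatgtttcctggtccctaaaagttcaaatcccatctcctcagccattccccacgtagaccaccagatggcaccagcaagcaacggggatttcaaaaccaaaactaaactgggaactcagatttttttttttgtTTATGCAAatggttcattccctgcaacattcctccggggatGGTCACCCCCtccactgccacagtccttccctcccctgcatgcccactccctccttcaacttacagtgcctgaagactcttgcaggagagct
C3: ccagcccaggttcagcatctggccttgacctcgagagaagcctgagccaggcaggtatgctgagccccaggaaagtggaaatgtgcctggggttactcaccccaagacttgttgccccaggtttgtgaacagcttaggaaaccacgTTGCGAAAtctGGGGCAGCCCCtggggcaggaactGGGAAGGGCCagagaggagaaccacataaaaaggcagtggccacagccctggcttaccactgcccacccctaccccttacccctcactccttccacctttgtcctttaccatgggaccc
Cd55: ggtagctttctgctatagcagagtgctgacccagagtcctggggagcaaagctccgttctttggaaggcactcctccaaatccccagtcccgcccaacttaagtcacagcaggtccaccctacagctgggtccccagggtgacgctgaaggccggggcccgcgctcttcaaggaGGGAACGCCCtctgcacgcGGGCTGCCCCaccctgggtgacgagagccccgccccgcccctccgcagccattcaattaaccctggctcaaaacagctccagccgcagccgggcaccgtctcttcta
The C/EBP letters searched were TTGCNNAA, held by 10.6% of 33469 promoters of the same length. The NF-kB letters were GGG and CC with any 5 bases between them, held by 47.3%. The GAS element of STAT factors was searched as TTCNNNGAA (8.87%), and the ISRE of interferon regulatory factors as GAAA and GAAA with any 2 bases between them (3.92%). The C1r promoter held 1 C/EBP match, TTATGCAA, beginning 83 bases before the start, and 1 NF-kB match. The C3 promoter held the C/EBP match TTGCGAAA and 3 NF-kB matches, of which 2 overlapped each other. The Cd55 promoter held 2 NF-kB matches, and C4a held 1. None of these 4 promoters had a GAS or ISRE match. The NF-kB letters are so loose that nearly as many promoters hold them as lack them, and a match is a description of the letters only.

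C4a, whose product is cleaved by C1s, was scarce. Its row had 29, 34 and 42 counts in SMNV and 20, 31 and 29 in Dox, which correspond to 1.42, 1.59 and 2.12 CPM in SMNV and 0.975, 1.63 and 1.43 CPM in Dox. The groups overlapped, and C4a did not pass (log2 fold change 0.35 ± 0.30, adjusted p = 0.331, edgeR). At this depth the standard error was nearly as large as the difference. The near-identical C4b row had 0 to 5 counts in SMNV and 0 to 1 in Dox, and the counting may have divided reads between the pair. C2 was not analysed here under its own symbol.

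The 3 tested genes of the alternative pathway, Cfb, Cfd and Cfp, were called higher, at low levels, where 30.5% of all tested genes were called higher. Cfd passed the filter on low counts only through its SMNV libraries, so its being tested depended on its being high there. Its call is therefore no separate support for a rise of the pathway. The call of the Cfb row was lost on all 3 TPM settings. Factor B, encoded by Cfb, is the protease of the alternative C3 convertase. The Cfb row had 7.05, 8.44 and 7.46 CPM in SMNV and 4.73, 4.63 and 5.27 CPM in Dox, from 144 to 180 counts in SMNV and 88 to 107 in Dox. The groups did not overlap, and the row rose 1.57-fold (log2 fold change 0.65 ± 0.15, edgeR adjusted p = 0.00159). The identity of this row is uncertain, since the authors' table gives it the symbol Cfb but describes it as complement C2, the homologous classical-pathway protease. In GRCr8 the genes of both are neighbours on chromosome 20. The mean transcript length implied by the ratio of the deposited counts to the deposited TPM was 2425, 2489 and 2639 bases in SMNV and 2231, 2148 and 2192 bases in Dox, and with offsets that correct for it the log2 fold change was 0.45 (adjusted p = 0.0201, edgeR). On log2(TPM + 1) the row did not pass (0.28, adjusted p = 0.0534, limma).

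Cfd encodes factor D (adipsin), which cleaves factor B, and had 41, 23 and 32 counts in SMNV and 2, 7 and 9 in Dox. It rose by 2.35 ± 0.45 on the log2 scale (edgeR adjusted p = 3.96e-04), at 1.57 ± 0.466 CPM in SMNV and 0.303 ± 0.182 CPM in Dox (SD, n = 3). Cfp encodes properdin, which stabilises the convertase, and had 42, 46 and 36 counts in SMNV and 18, 20 and 10 in Dox (log2 fold change 1.31 ± 0.32, adjusted p = 0.00223, edgeR). Both sets of libraries were apart, at levels of no more than 2.16 CPM. C3, the component on which all pathways meet, had no count in any library. A count of 0 allows up to 3 counts a library by counting error, or 0.139 to 0.147 CPM in SMNV and 0.150 to 0.161 CPM in Dox.

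Of the soluble regulators, Clu rose and the others were scarce. Clusterin, encoded by Clu, is a secreted chaperone that binds the forming membrane attack complex. Clu had 13.7, 15.7 and 16.2 CPM in SMNV and 10.2, 11.4 and 9.71 CPM in Dox. The groups did not overlap, and Clu rose 1.46-fold (log2 fold change 0.54 ± 0.12, edgeR adjusted p = 9.2e-04). It also passed on log2(TPM + 1), at 0.41 (adjusted p = 0.00493, limma). Serping1, which encodes C1 inhibitor, the serpin that inactivates C1r and C1s, had 4, 8 and 4 counts in SMNV and 1, 6 and 1 in Dox. It did not reach the filter, and its highest library, SMNV 2, had 0.372 CPM by total count. C1r and C1s transcripts were thus present where the transcript of their inhibitor was near the limit of detection in both groups. Factor I, encoded by Cfi, had 1, 3 and 6 counts in SMNV and none in Dox, and was not tested.

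The membrane regulators Cd55 and Cd59 had lower values with SMNV, but the calls depended on the scale. CD55 speeds the decay of the convertases. Cd55 had 6.75, 8.95 and 7.11 CPM in SMNV and 10.4, 9.15 and 9.02 CPM in Dox. The groups stood apart by little, since SMNV 2 was close to the lowest Dox libraries, and Cd55 did not pass (log2 fold change -0.33 ± 0.14, adjusted p = 0.0614, edgeR). Without SMNV 2 it passed at -0.45 (adjusted p = 0.021, edgeR), and it passed on log2(TPM + 1) at -0.38 (adjusted p = 0.0228, limma). CD59 blocks the assembly of C9 into the pore. Cd59 had 5.92, 6.56 and 5.95 CPM in SMNV and 7.65, 7.10 and 8.53 CPM in Dox, without overlap, and just missed the threshold (-0.34 ± 0.14, adjusted p = 0.0516, edgeR). It passed without Dox 2 (-0.40, adjusted p = 0.0426, edgeR) and on log2(TPM + 1) at -0.62 (adjusted p = 0.00263, limma). On log2(TPM + 1) the median of all tested genes stood at -0.10. Relative to that median Cd55 was at -0.27 and Cd59 at -0.52.

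The implied transcript length of Cd59 also varied between libraries. It was 745, 840 and 998 bases in SMNV and 703, 620 and 926 bases in Dox, where the table lists a gene length of 3408 bases. With offsets that correct for the implied length Cd59 was lower at -0.54 (adjusted p = 0.0102, edgeR), while Cd55 stayed at -0.33 (adjusted p = 0.0597). The implied length of Cd55 was 2592, 3344 and 3436 bases in SMNV and 3196, 3128 and 3007 bases in Dox. That of C1s was 2595 to 2646 bases in SMNV and 2539 to 2577 in Dox, and with these offsets C1s was at -0.36 (adjusted p = 3.2e-04, edgeR). For C1r, C4a and Clu the implied lengths differed little between libraries (2782 to 2786 bases for C1r). Cr1l, the rodent regulator Crry that inactivates C3 and C4 fragments, was more abundant than Cd55 or Cd59. It had 69.2 ± 0.849 CPM in SMNV and 76.8 ± 0.654 CPM in Dox (SD, n = 3). Its fall of 0.15 on the log2 scale passed narrowly (adjusted p = 0.0463, edgeR). It did not pass when any single library was left out (adjusted p 0.0557 to 0.173, edgeR). On log2(TPM + 1) Cr1l was at -0.28 (adjusted p = 0.00277, limma), but at -0.18 relative to the median of all tested genes on that scale. Thbd, encoding thrombomodulin, which limits both clotting and complement, rose at a low level, with 52, 31 and 63 counts in SMNV and 17, 11 and 6 in Dox (log2 fold change 2.06 ± 0.39, adjusted p = 3.65e-04, edgeR). Without its SMNV libraries Thbd would not have passed the filter on low counts.

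**Figure D3:**
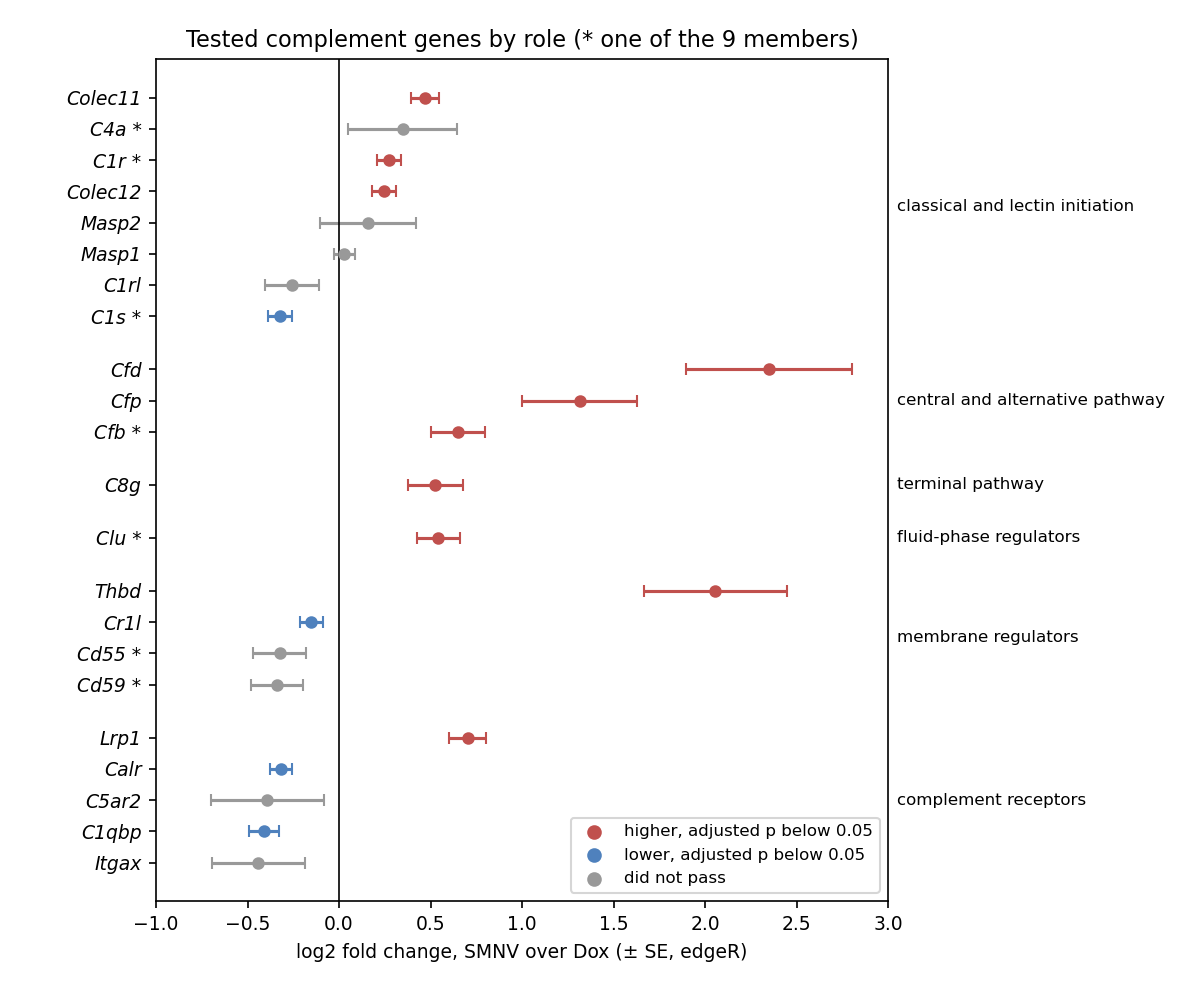
Log2 fold change of SMNV over Dox with its standard error (edgeR, 3 libraries a group) for the 22 tested genes of the complement lists, grouped by role, with genes higher in red, lower in blue and not passing in grey. Cfd, Cfp and the Cfb row, listed under the alternative pathway, lie to the right of 0, and C1r and C1s lie on opposite sides of it. The membrane regulators other than Thbd lie just to the left of 0. The identity of the Cfb row is uncertain, and Cfd and Thbd passed the filter only through their SMNV libraries.

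The wider pathway was read from lists of 62 complement genes, of which 56 had a row and 22 were tested. In these, 10 rose, 4 fell and 8 did not pass, their median log2 fold change was 0.20, and 63.6% were called, against 60.4% of all tested genes. On log2(TPM + 1), where 24.4% of all tested genes were higher and 36.9% lower, 6 were higher and 7 lower. Cfd and Thbd, among the genes higher on both scales, passed the filter only through their SMNV libraries. The numbers higher, the share called and the median therefore depend in part on that filter, and these 2 genes are no separate support for a rise. Of the 34 genes below the filter, 15 had no count in any library, and the highest value among them was 0.441 CPM by total count. Those without a count included Mbl1, Fcna and Fcnb of the lectin pathway and C6, C7 and C8a of the terminal pathway.

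Among the initiators of the lectin pathway the most abundant was Colec11, whose product collectin-11 is a soluble lectin that binds sugars on microbes and recruits MASP proteases. Colec11 had 1881 ± 71.8 TPM in SMNV and 1489 ± 159 TPM in Dox (SD, n = 3). In CPM it had 440.2, 498 and 475 in SMNV and 303, 353 and 366 in Dox, without overlap, and rose by 0.47 ± 0.08 on the log2 scale (edgeR adjusted p = 9.18e-05). Masp1, encoding its partner protease, had 119 ± 2.75 CPM in SMNV and 117 ± 2.21 CPM in Dox, with overlapping groups (0.03 ± 0.06, adjusted p = 0.693, edgeR). The ratio of Colec11 to Masp1 was 32.6 ± 2.80 in SMNV and 23.4 ± 2.26 in Dox (TPM over TPM, SD, n = 3, two-sided exact permutation p = 0.1, the smallest possible). On counts the ratio was 3.95 ± 0.261 in SMNV and 2.91 ± 0.234 in Dox. The TPM ratio and the TPM level of Colec11 rest on an implied transcript length of 458 to 470 bases, where the table lists a gene length of 1373 bases, so their size depends on that length. Colec12, a membrane collectin and scavenger receptor, rose by 0.25 ± 0.07 (adjusted p = 0.00407, edgeR) but did not pass on log2(TPM + 1) (0.13, adjusted p = 0.112, limma). Masp2 did not pass (0.16 ± 0.26).

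In the terminal pathway only C8g was tested, and it encodes the lipocalin chain of C8. C8g had 8.47, 10.9 and 10.1 CPM in SMNV and 6.09, 6.37 and 7.98 CPM in Dox, and rose by 0.53 ± 0.15 (adjusted p = 0.00684, edgeR). It did not pass on log2(TPM + 1) (0.21, adjusted p = 0.196, limma) or with length-corrected offsets (0.34, adjusted p = 0.0774, edgeR). C5, C8b and C9 had at most 2 counts in any library.

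Proteins that bind complement fragments at the cell surface are also known for other tasks. C1qbp, a mitochondrial protein that binds C1q, fell by 0.41 on the log2 scale, with 44.2 ± 1.86 CPM in SMNV and 58.8 ± 5.57 CPM in Dox. Calr, the endoplasmic reticulum chaperone calreticulin, fell by 0.32, with 1328 ± 33.3 CPM in SMNV and 1652 ± 31.2 CPM in Dox. Lrp1, an endocytic receptor, rose by 0.70 ± 0.10, with 2094 ± 260.0 CPM in SMNV and 1286 ± 187 CPM in Dox (SD, n = 3 for each of the 3 genes, adjusted p = 5.29e-04, 3.6e-04 and 3.17e-05 for C1qbp, Calr and Lrp1, edgeR). The anaphylatoxin receptor C5ar2 and the integrin chain Itgax did not pass and were at no more than 2.31 CPM. C3ar1 had 2 counts in 1 Dox library.

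Transcription factors known to act on promoters of acute-phase genes were read beside these values. Of 6 tested, 4 rose and none fell, a share called of 66.7% against 60.4% of all tested genes (30.5% higher). Rela, the p65 subunit of NF-kB, had 57.0, 56.2 and 56.7 CPM in SMNV and 35.0, 44.8 and 42.4 CPM in Dox (log2 fold change 0.48 ± 0.09). Irf1 rose by 0.36 ± 0.09, Nfkb1 by 0.30 ± 0.07 and Cebpb by 1.33 ± 0.31 (adjusted p 3.03e-04 to 0.00207 for the 4 genes, edgeR). Cebpb stood at a low level, with 38, 48 and 44 counts in SMNV and 19, 20 and 11 in Dox. Nfkb1 narrowly missed on log2(TPM + 1) (0.20, adjusted p = 0.051, limma). Stat3 (0.01 ± 0.08) and Cebpa (0.09 ± 0.16) did not pass. Cebpd was below the filter, with 20, 10 and 18 counts in SMNV and 0, 1 and 3 in Dox. Whether these factors have a part in the complement values was not tested.

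Outside the pathway, the genes whose 6 values were most like those of each called member were found by the root mean square difference of centred log2 CPM over the 6 libraries, among 9642 genes. For C1s they were Ap3b1 (0.018), Fgfr1op2 (0.018) and Snx25 (0.022). For C1r they included Cry2 (0.020) and Cog8 (0.021). For Clu they were Gucd1, Cdc25c and Csnk2b (0.043 to 0.047), and for Cfb RGD1311847, Ranbp1 and Pan2 (0.044 to 0.056). No complement gene was among them, but with 3 genes taken per member out of 9642 this was likely whatever the data.

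In the annotation terms of the authors' deposited table, 15 tested genes carried a Gene Ontology term naming complement activation, of which 6 rose, 4 fell and 5 did not pass, where 60.4% of all tested genes were called (30.5% higher and 29.9% lower). Of 15 tested genes in the pathway named complement and coagulation cascades, 5 rose, 6 fell and 4 did not pass, against the same shares of all tested genes. Cfd, which rose in both sets, and Thbd, which rose in the second, passed the filter only through their SMNV libraries. These term sets were chosen after the data were seen and overlap the lists above, with 11 and 5 genes shared.

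**Figure D4:**
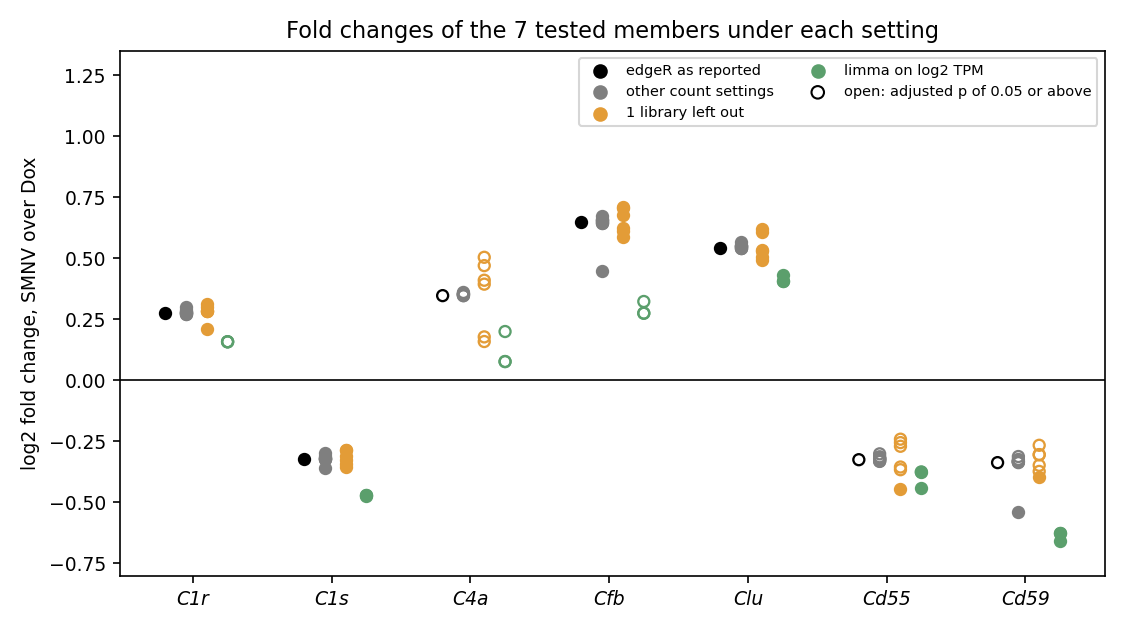
Log2 fold change of SMNV over Dox for the 7 tested complement genes in the edgeR comparison (black), other settings on counts (grey), each library left out (orange) and limma on log2 TPM (green), where open circles have an adjusted p of 0.05 or above. C1s and Clu are filled throughout, C1r and Cfb are open on the TPM scale alone, and Cd55 and Cd59 are open in the edgeR comparison as reported and filled on 2 and 3 of the 3 TPM settings.

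The 7 tested genes kept their direction in every alternative that gave a value. C1s and Clu passed in 18 of 18 alternatives, with log2 fold changes of -0.47 to -0.29 for C1s and 0.41 to 0.62 for Clu. C1r and Cfb each passed in 15 of 18, at 0.16 to 0.31 and 0.28 to 0.71, and missed on the 3 TPM settings. Cd59 passed in 5 of 18 and Cd55 in 3 of 18, and C4a passed in none of the 17 that gave it a value.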

How the data were processed

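Poly(A) RNA of 6 libraries (3 SMNV, 3 Dox) was analysed from gene tables that the authors deposited. Of tools, fastp, HISAT2 and HTSeq stand in the submitters' processing notes, with mRatBN7.2 as build and no version. The sources used here do not give the annotation or whether counting used strand, so overlapping genes cannot be told apart. The first deposited table holds estimated counts, not normalized: 17.9% to 18.8% of values above 0 had decimals, and how the authors obtained these is not given. The design assumed whole counts; they were rounded and the test was kept. The second deposited table holds TPM, which the authors scaled by length and to the same sum in each library. Symbols missing from 612 rows came from the Entrez number and RefSeq names of GRCr8.

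The 12614 rows that passed filterByExpr of edgeR 4.0.16 (R 4.3.3) were scaled with TMM factors and tested with glmQLFit and glmQLFTest, two-sided, group as the only term, with Benjamini-Hochberg adjustment over all tested genes and a threshold of 0.05. A log2 fold change is SMNV minus Dox, and its SE is its size over the square root of F. The code was tested on simulated data. Alternatives used DESeq2 1.42.0, limma 3.58.1 (voom, and limma-trend on log2(TPM + 1), where fold changes of low genes are understated), other scaling and filters, left-out libraries, a replicate block, summed rows and, chosen after seeing the data, offsets from the count to TPM ratio, set to the listed lengths at the median of rows with at least 20 counts. The members and lists were chosen with earlier results of these data known. All 9 members are named, with list genes past the threshold or at 5 CPM or more, and the 3 genes most like each called member, except that some genes are not reported here. Other genes were chosen after their values were seen. Cfi, Cebpd and others below the filter carry no test. Intervals for a count of 0 cover counting error only.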

Additional observations from a re-analysis of the deposited data

How the results depend on the processing

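The scale mattered most. On log2(TPM + 1) and log2(TPM + 0.1), 1 of the 7 tested members was higher and 3 were lower, in place of 3 and 1. Without a filter on log2(TPM + 1), 1 of 8 was higher and 2 were lower. All tested genes moved the same way: 24.4% were higher and 36.9% lower on log2(TPM + 1), in place of 30.5% and 29.9% on counts. Length-corrected offsets gave 2 lower members. Of the wider lists, 6 genes were higher on each of the 3 TPM settings and 7 were lower on log2(TPM + 1) and log2(TPM + 0.1), in place of 10 and 4. The median of all genes stood at -0.12 on log2(TPM + 0.1), against -0.01 on counts. Leaving out each library in turn gave 1 to 2 lower members, with Cd55 joining C1s without SMNV 2 and Cd59 without Dox 2. Masp1, which did not pass in any setting, changed sign on the TPM settings (-0.138 on log2(TPM + 1) with and without a filter, -0.14 on log2(TPM + 0.1)). It did so under length-corrected offsets too (-0.024). The cause was not tested. With the replicate number as a block, 7387 genes and 4 members were called, in place of 7614 and 4. The numbers share no stated origin, same-numbered libraries correlated at -0.116 to 0.008 after removal of group means, and they were not treated as pairs. C4a gave no value at a mean of at least 5 CPM. Among single genes of the lists, 25 results lost a call and 11 gained one out of 389. Counts of about 20 to 40 for C4a and below 10 for Serping1 limit what can be detected.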
